A study of Rattus norvegicus with 7 samples.

Results

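The transcripts of 10 heat shock chaperones, cochaperones and their transcription factor were followed in NR8383 cells, a line of rat alveolar macrophages, after exposure to ZnO nanoparticles (NPs). The 10 genes are Hspa8, Hsph1, Dnaja1 and Dnajb1 of the Hsp70 machinery, Hsp90aa1, Hsp90ab1, Ahsa1 and Ahsa2 of the Hsp90 machinery, the small heat shock protein Hspb1, and Hsf1, out of 36174 gene names on the array. All probes that the array's design names for these genes were taken, 18 of 45598 probes. The genes were chosen with the difference between ZnO and control arrays already known, so that difference is described here and no test of it is offered as support.

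ZnO-exposed cells received uncoated ZnO NPs (NM110) for 4 h in medium without serum, at 2 µg/mL in the sample labels, and were measured in 3 biological replicates. Unexposed control cells were kept for 4 h without NPs in the same serum-free medium and were measured in 4. The study's methods give a higher dose than the labels, so the groups stand only for cells with and without ZnO NPs. NR8383 grows as a mixture of adherent and floating cells derived from a normal rat lung, and each replicate was hybridised on a one-color Agilent rat array. Levels are log2 intensities relative to the 75th percentile of the same array, so a level of 0 lies at that percentile. A level of 1 probe cannot be set against that of another, since probes bind with different strength.

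Heat shock proteins bind unfolded or partly folded proteins and release them in cycles of ATP binding and hydrolysis. J-domain proteins deliver clients to Hsp70 and start its hydrolysis step, exchange factors reset it, and Hsp90 with its cochaperones finishes the folding of kinases, receptors and transcription factors. Under proteotoxic stress, Hsf1 forms trimers, binds repeats of the inverted letters GAA and TTC in front of heat shock genes and raises their transcription, and the inducible Hsp70 genes are its best known targets.

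The labels were first checked on genes of zinc handling. The metallothionein Mt2A had levels of 2.36, 2.25 and 2.32 on the ZnO arrays, against -3.17, -3.69, -3.59 and -3.63 on the control arrays, a 56.9-fold rise (limma, adjusted p = 3.85e-06). Mt1a rose 10.6-fold (adjusted p = 3.72e-05) and the zinc exporter Slc30a1 rose 2.59-fold (adjusted p = 0.00278), and for all 3 genes every ZnO array lay above every control array. Across the series, 10 of 20065 tested probes passed an adjusted p of 0.05 in limma, all of them higher after ZnO. The 75th percentile lay between 979.6 and 1603 on the ZnO arrays and between 958.2 and 1489 on the control arrays, with 52.9 to 54.3% and 51.8 to 56.0% of spots well above background. The ZnO arrays lay in another column of the slide than the control arrays, so position and exposure cannot be told apart. Of 12 macrophage markers, 11 were above background on all arrays, against 2 of 8 lymphocyte, 0 of 10 epithelial, 2 of 6 fibroblast, 3 of 6 endothelial and 2 of 6 neutrophil markers. No marker that entered the test passed it, but most markers outside the macrophage list did not enter it. Marco was not well above background on any array.

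Most of the chaperone transcripts had nearly the same level with and without ZnO. Taking the brightest probe of each gene, the log2 fold change of ZnO over control ran from -0.08 for Hsf1 to 0.62 for Ahsa2, with a median of 0.04, against -0.01 over all tested probes. The 95% interval lay wholly within a 1.5-fold change in either direction for 7 of the 10 genes, as it did for 82.6% of all tested probes, and the exceptions were Ahsa2, Dnaja1 and Hspb1. None of the 10 genes passed an adjusted p of 0.05 in limma, where 0.0498% of all probes did, and 0 passed the cutoffs of the study (fold over 1.5 at an adjusted p under 0.001), where 0.0199% of all probes did. At an unadjusted p under 0.05, Ahsa2 and Dnaja1 were higher and 0 genes were lower, against 3.07% of all probes higher and 2.86% lower. The ZnO arrays did not overlap the control arrays for the same 2 genes, against 3.79% of all probes apart with ZnO higher and 3.58% with ZnO lower. These shares are printed beside the counts for orientation only, because the genes were chosen on this contrast. In bulk RNA, fewer cells that express a gene and less of its RNA per cell cannot be told apart.

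**Figure D1:**
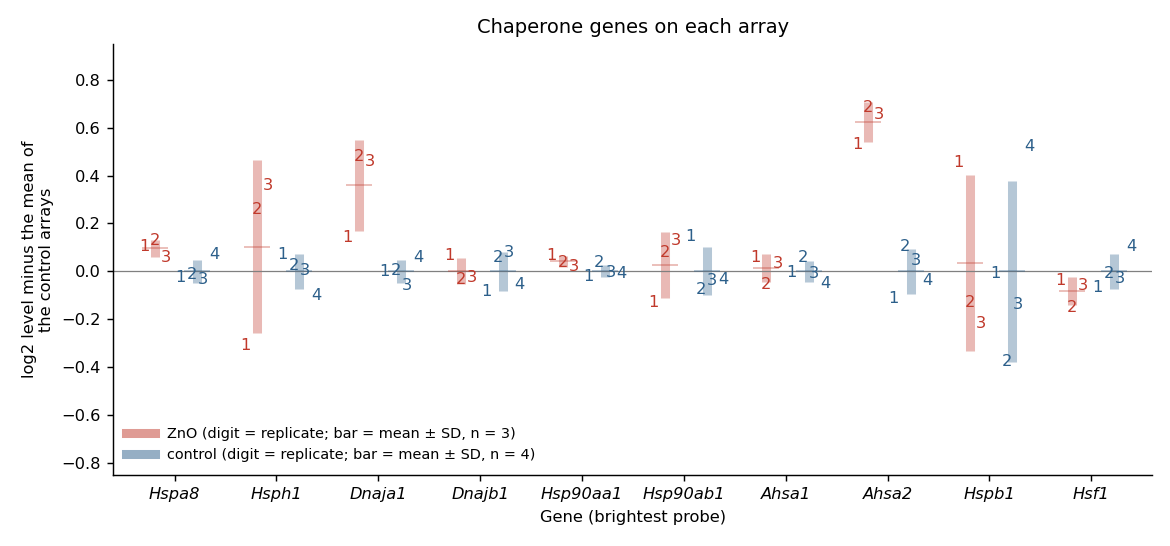
Log2 level of each chaperone gene on each array minus the mean of its 4 control arrays, for the brightest probe, with ZnO replicates left (red digits) and control replicates right (blue digits) and bars for the mean ± SD. The red and blue digits do not overlap for Ahsa2 (0.62 higher after ZnO on average) and Dnaja1 (0.36 higher), and the arrays of Hspb1 and Hsph1 are the most scattered.

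Ahsa2 encodes a homolog of Ahsa1, the cochaperone that binds the middle domain of Hsp90 and speeds up its ATPase. The probes of both genes read the corresponding stretch of their transcripts, and they are shown because these neighbours in sequence had different readouts. Capitals mark the bases that are identical when the probes are laid over each other without gaps, 36 of 56 aligned bases (64.3%), with no identical run longer than 7 bases.
Ahsa1 A_44_P914285: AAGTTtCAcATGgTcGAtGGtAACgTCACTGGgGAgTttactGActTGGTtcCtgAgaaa
Ahsa2 A_44_P109927: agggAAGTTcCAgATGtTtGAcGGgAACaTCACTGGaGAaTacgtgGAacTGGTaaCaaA
The files place the Ahsa2 probe on the minus strand of rn4 at chr14:104427263-104427615, a span of 353 bases for a probe of 60, so its ends lie in separate exons. They give no position for the Ahsa1 probe.

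Ahsa2 (A_44_P109927) had log2 levels of -2.87, -2.72 and -2.75 on the ZnO arrays, against -3.51, -3.30, -3.36 and -3.44 on the control arrays. Each ZnO array lay above each control array, and the nearest pair was ZnO replicate 1 and control replicate 2. The means were -2.78 ± 0.08 in ZnO-exposed cells (SD, n = 3) and -3.40 ± 0.09 in control cells (SD, n = 4), a log2 fold change of 0.62 (SE 0.08, 95% interval 0.44 to 0.81) or 1.54-fold, which ranked 116 of the 20065 probes. Its adjusted p was 0.12 in limma. With array quality weights the fold change was 0.66 and the adjusted p in limma was 0.0392, the only setting under 0.05. The adjusted p was 0.095 with only probes above background on all arrays, 0.44 with median centring and 0.73 with no filter on dim probes. In limma it was 0.9999 with the replicate number as a block, and 0.25 to 0.51 with an array left out. The fold change was 0.41 with another background correction (normexp, adjusted p = 0.45) and 0.45 from the scanner's median intensities (adjusted p = 0.42). When arrays were centred on the E1A spike-in spots the ZnO and control arrays of Ahsa2 overlapped, as they did for all but 0.115% of tested probes.

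The Ahsa2 signal was dim but measured. Its intensities were 133.6, 198.4 and 239 on the ZnO arrays, against 115.3, 151.4, 115.1 and 88.2 on the control arrays, where the lowest intensities called well above background were 18.8 to 24.6 and 16.7 to 20.3. A further Ahsa2 probe, A_44_P1086589, on the minus strand of rn4 at chr14:104424340-104424399, was not well above background on any of the 7 arrays and was not tested. The difference in Ahsa2 therefore rests on 1 probe with 1 spot on each array.

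Ahsa1 (A_44_P914285) had log2 levels of 3.24, 3.13 and 3.21 on the ZnO arrays, against 3.18, 3.24, 3.17 and 3.13 on the control arrays. The groups overlapped fully, with a log2 fold change of 0.01 (SE 0.07, 95% interval -0.14 to 0.17). The interval of Ahsa1 ended below the start of that of Ahsa2, although the difference between the genes was not tested.

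Dnaja1 encodes a type A J-domain protein that partners cytosolic Hsp70. Its probe, A_43_P12340 (plus strand, rn4 chr5:58111641-58111700), had levels of -0.92, -0.58 and -0.61 on the ZnO arrays, against -1.07, -1.06, -1.12 and -1.01 on the control arrays. The ZnO arrays were all higher, but ZnO replicate 1 lay much nearer to the control arrays than replicates 2 and 3 did. The log2 fold change was 0.36 (SE 0.10, 95% interval 0.13 to 0.59), or 1.28-fold, ranking 495 of 20065, with an adjusted p of 0.65 in limma. Dnajb1, a type B J-domain protein and a classical heat shock gene, had levels of 0.23, 0.13 and 0.14 on the ZnO arrays, against 0.08, 0.23, 0.25 and 0.11 on the control arrays. Its groups overlapped and the log2 fold change was 0.00 (SE 0.07, 95% interval -0.17 to 0.17).

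Hspa8 encodes Hsc70, the constitutive cytosolic Hsp70, and was read by 4 probes. The brightest, A_44_P1147993 (rn4 chr8:43787677-43787736), had levels of 6.76, 6.78 and 6.71 on the ZnO arrays, against 6.63, 6.64, 6.62 and 6.73 on the control arrays. Only control replicate 4 reached into the range of the ZnO arrays, and the log2 fold change was 0.10 (SE 0.06, 95% interval -0.05 to 0.25). A_44_P1086385 overlaps it by 40 bases and so is not a separate reading of the transcript, with a log2 fold change of 0.11. A_44_P1159711, which spans an intron upstream, gave 0.12, and A_64_P096381, the most 5′ of the probes, gave -0.05. All 4 intervals included 0.

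Hsph1 encodes Hsp110, an exchange factor for Hsp70 that is itself a strongly heat-inducible Hsp70 relative. Its probe lies on the plus strand of rn4 at chr12:5809732-5809791 and is printed because its ZnO replicates disagreed.
Hsph1 A_44_P121374: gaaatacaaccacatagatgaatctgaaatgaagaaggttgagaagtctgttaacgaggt
It had levels of -4.21, -3.64 and -3.54 on the ZnO arrays, against -3.83, -3.88, -3.90 and -4.00 on the control arrays. ZnO replicate 1 lay below all control arrays and ZnO replicates 2 and 3 lay above all of them. The log2 fold change was 0.10 (SE 0.16, 95% interval -0.26 to 0.47), and the SD was 0.36 in ZnO-exposed cells (n = 3) and 0.07 in control cells (n = 4).

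**Figure D2:**
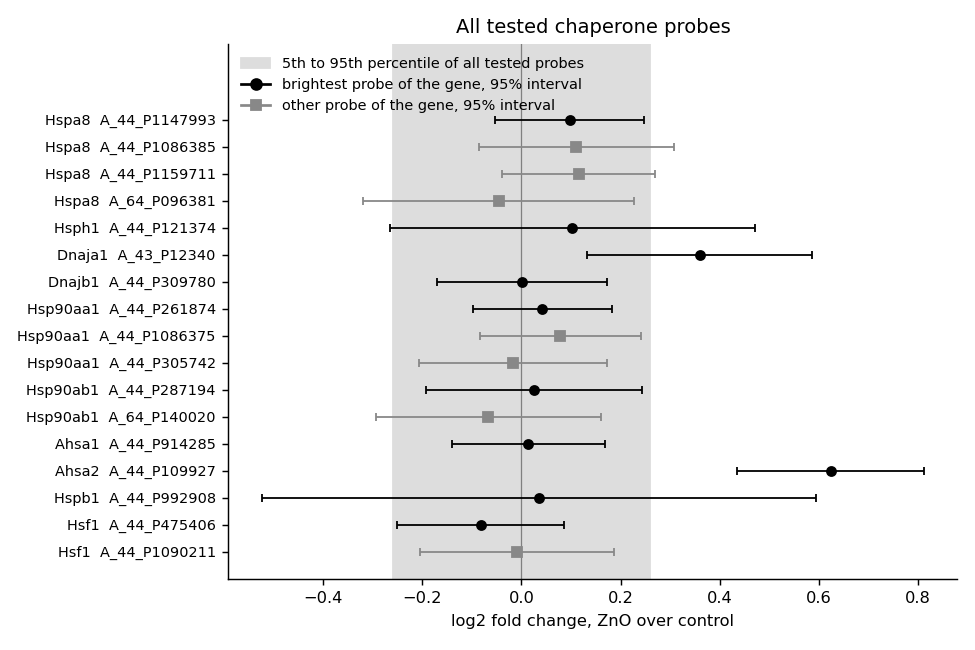
Log2 fold change of ZnO over control with its 95% interval for each of the 17 tested chaperone probes, circles for the brightest probe of a gene and squares for its other probes, with the 5th to 95th percentile of all tested probes (-0.26 to 0.26) shaded. Ahsa2 (0.62) and Dnaja1 (0.36) lie right of the shaded range and all other probes lie inside it.

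Both cytosolic Hsp90 genes were close to their control levels. The brightest probe of the inducible form Hsp90aa1, A_44_P261874 (minus strand, rn4 chr6:135417971-135418030), had levels of 4.56, 4.53 and 4.51 on the ZnO arrays, against 4.47, 4.53, 4.49 and 4.48 on the control arrays. The groups overlapped by control replicate 2 alone, and the log2 fold change was 0.04 (SE 0.06, 95% interval -0.10 to 0.18). A_44_P1086375 gave 0.08. A_44_P305742, which the files also name Hsp90aa1 but place on the opposite strand, gave -0.02, and whether it reads the Hsp90aa1 transcript is uncertain.

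The constitutive form Hsp90ab1 had levels of 4.92, 5.13 and 5.18 on the ZnO arrays, against 5.20, 4.98, 5.02 and 5.02 on the control arrays, for A_44_P287194 (rn4 chr9:11036014-11036073). ZnO replicate 1 was the lowest of the 7 arrays and control replicate 1 the highest. The log2 fold change was 0.03 (SE 0.09, 95% interval -0.19 to 0.24), and the further probe A_64_P140020 gave -0.07 (95% interval -0.29 to 0.16). Hsp90 and Hsp70 genes have close relatives. Over 141 pairs of probes for different genes of the set, no shared run of bases was longer than 9. The probes were compared only with each other and not with the transcripts of relatives. Whether a probe also binds the transcript of a relative was therefore not tested.

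Hspb1 encodes Hsp27, an ATP-independent chaperone that holds unfolded proteins and binds actin filaments. Its probe crosses an intron on the minus strand of rn4 (chr12:21911494-21911664) and is shown because the design prints it on 10 spots of each array.
Hspb1 A_44_P992908: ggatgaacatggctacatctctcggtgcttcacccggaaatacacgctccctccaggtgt
Averaged over spots, the levels were -3.52, -4.11 and -4.19 on the ZnO arrays, against -3.98, -4.35, -4.11 and -3.45 on the control arrays. ZnO replicate 1 and control replicate 4 stood above the other arrays, and the groups overlapped. The log2 fold change was 0.03 (SE 0.24), with the widest 95% interval of the set, -0.52 to 0.59.

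The spots of Hspb1 allow its scatter to be seen within an array. The SD between spots of 1 array ran from 0.33 to 0.43 on the ZnO arrays and from 0.29 to 0.54 on the control arrays, while the array means lay between -4.35 and -3.45. The median intensity of the spots was 89.8, 78.6 and 99.1 on the ZnO arrays, against 85.2, 81.2, 73.9 and 97.4 on the control arrays, and thus covered a small range. The arrays with the highest Hspb1 levels, ZnO replicate 1 and control replicate 4, were those with the lowest 75th percentiles (979.6 and 958.2). The part of array brightness in the Hspb1 scatter was not tested.

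**Figure D3:**
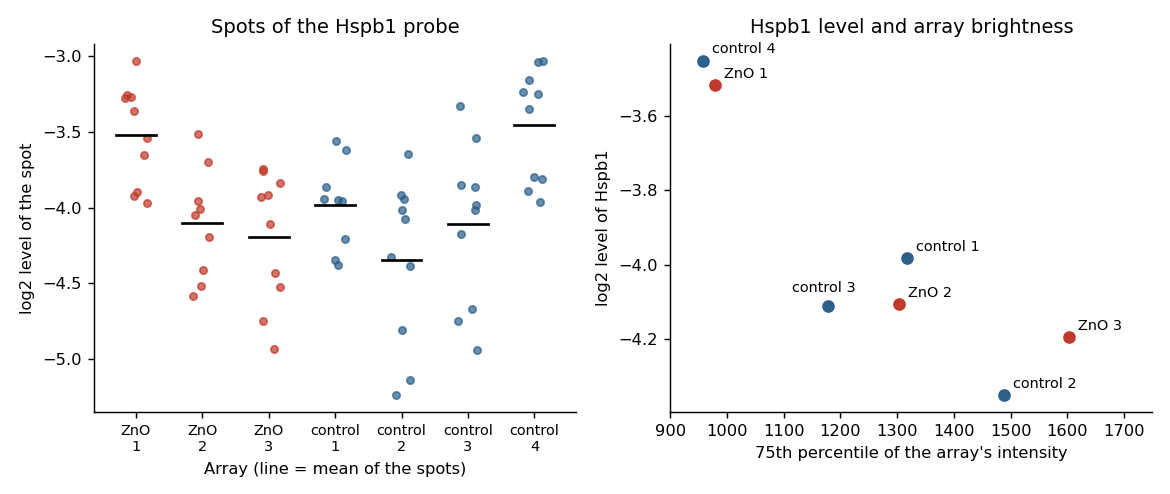
Left, log2 level of each spot of the Hspb1 probe on the ZnO arrays (red) and control arrays (blue), with the mean of the spots as a line. Right, the Hspb1 level of each array against the 75th percentile of its intensity, with ZnO 1 and control 4 at the upper left.

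Hsf1, the transcription factor of the heat shock response, is regulated mainly at the protein level. Its brightest probe, A_44_P475406 (plus strand, rn4 chr7:114550596-114550655), had levels of 0.18, 0.07 and 0.16 on the ZnO arrays, against 0.15, 0.21, 0.19 and 0.32 on the control arrays. The groups overlapped, with a log2 fold change of -0.08 (SE 0.07, 95% interval -0.25 to 0.09), and the further probe A_44_P1090211 gave -0.01 (95% interval -0.20 to 0.19).

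ZnO replicate 1 differed from replicates 2 and 3 in several of these genes. It was the lowest ZnO array for Ahsa2, Dnaja1, Hsph1 and Hsp90ab1, and the highest ZnO array for Hspb1, Dnajb1, Hsp90aa1, Ahsa1 and Hsf1. For Ahsa1 (3.24, 3.13 and 3.21) and Hsf1 (0.18, 0.07 and 0.16), however, ZnO replicate 2 lay further from the other ZnO arrays. An array out of 3 is often the lowest or highest by order alone, and the share over all probes was not counted. ZnO replicate 1 was also the ZnO array with the lowest 75th percentile and the only ZnO array whose scanner report was in range. The scanner's quality report marked ZnO replicates 2 and 3 and control replicates 3 and 4 for evaluation. Without these arrays, which leaves 1 ZnO array against 2 control arrays, the log2 fold change was 0.53 for Ahsa2, 0.14 for Dnaja1, -0.36 for Hsph1 and 0.65 for Hspb1.

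The classical inducible Hsp70 genes, Hspa1a (2 probes) and Hspa1b, were not well above background on any ZnO or control array, so no fold change is given for them. The same was true of Hspa1l, Hspa12b, Hspb3, Hspb7, Hspb8, Hspb9 and Hsf4. Hspa12a was above background on 1 ZnO array and on 0 control arrays. Prefoldin subunit Vbp1 was not found by name.

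The wider chaperone network was described with 8 lists of 83 genes, of which 72 were measured. None passed an adjusted p of 0.05 in limma (background 0.0498%). At an unadjusted p under 0.05, Ahsa2, Dnaja1 and the small heat shock protein Hspb6 were higher and Hspa2 was lower. That is 3 and 1 of the 72 genes, against 3.07% of all probes higher and 2.86% lower, and is printed for orientation only. Without the 10 genes above, 62 were measured, with 39 log2 fold changes above 0 and a median of 0.01, against 47.9% above 0 and a median of -0.01 over all tested probes. Groups did not overlap for 4 of these 62 with ZnO higher (Bag5, Dnajb2, Tomm34 and Hspb6) and for 1 with ZnO lower (Hspa2), where 7.38% of all probes were apart in either direction.

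Among the Hsp70 and Hsp110 family, Hspa2, a relative best known from the testis, had levels of -4.75, -4.74 and -5.14 on the ZnO arrays, against -4.57, -4.13, -4.67 and -4.30 on the control arrays. The ZnO arrays did not overlap the control arrays and were lower, with a log2 fold change of -0.46 (SE 0.16, adjusted p = 0.79). The Hsp110 relatives Hspa4 and Hspa4l gave 0.20 (adjusted p = 0.91) and -0.18 (adjusted p = 0.84), with overlapping groups. Among the exchange factors and regulators, all 11 genes were measured and lay between -0.10 (Hspbp1) and 0.12 (Bag2), with Bag4 at 0.11. Bag3, an exchange factor that is induced by heat shock, gave 0.05 and was picked for mention after its value was seen.

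Of the 12 J-domain proteins, Dnajb2 gave a log2 fold change of 0.16 (adjusted p = 0.87) with ZnO and control arrays apart, Dnaja4 gave 0.10 and Dnajb12 gave -0.09. Among the 18 genes of the Hsp90 family and its cochaperones, Tomm34, which links Hsp70 and Hsp90, gave 0.18 (adjusted p = 0.85) and had levels of 1.92, 2.02 and 2.04 on the ZnO arrays, against 1.83, 1.87, 1.68 and 1.89 on the control arrays. Its ZnO arrays all lay above its control arrays. Chordc1 gave 0.16 and the phosphatase Ppp5c gave -0.11, both with overlapping groups.

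Of the 9 small heat shock proteins, 5 were measured. Hspb6 had levels of -2.80, -3.01 and -3.04 on the ZnO arrays, against -3.08, -3.15, -3.27 and -3.15 on the control arrays, a log2 fold change of 0.21 (SE 0.09, adjusted p = 0.83). The lens crystallin Cryaa had the highest fold change of the listed genes outside the set, 0.39, but also an SE of 0.34 and overlapping groups, and Hspb2 gave 0.05. The mitochondrial chaperonin subunits Hspd1 and Hspe1 gave 0.00 and 0.01. In the cytosolic chaperonin and prefoldin, 13 genes lay between -0.15 (Cct4) and 0.16 (Cct8), with Pfdn1 at 0.12. Hsf2 gave 0.17 and the Hsf1-binding protein Hsbp1 gave -0.02.

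**Figure D4:**
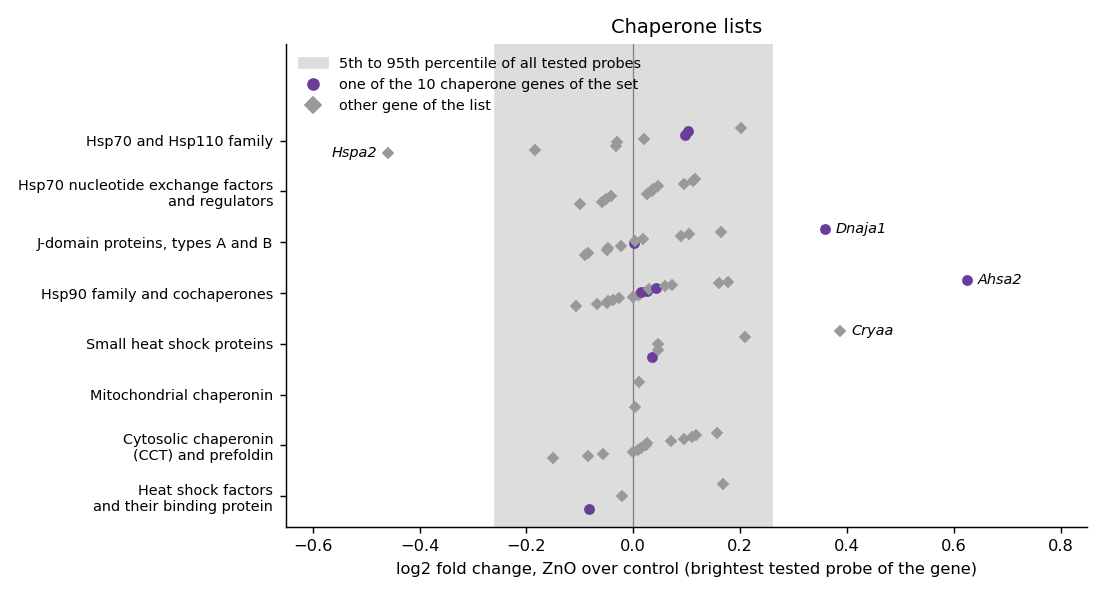
Log2 fold change of ZnO over control for the 72 measured genes of the 8 chaperone lists, with the 10 genes of the set as purple circles, other genes as grey diamonds and the 5th to 95th percentile of all tested probes shaded. Ahsa2 and Dnaja1 (set) and Cryaa lie to the right of the shaded range, Hspa2 lies to the left at -0.46, and the other genes lie inside it.

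The genes whose profile over the 7 arrays was most like that of Ahsa2 were sought among 18998 probes, after centring each probe on its control mean, by the root mean square difference. The nearest probe of all, for the unnamed locus LOC102552371, had a difference of 0.079 and a log2 fold change of 0.68 (limma, adjusted p = 0.026), and is given after its value was seen. Among probes matched to a current gene symbol, the nearest were Zfp354a (0.119), Zfp472 (0.126), Ankrd37 (0.126), Terf2ip (0.131) and Trim35 (0.145), at ranks 3, 5, 6, 8 and 12 of all probes, with log2 fold changes of 0.53, 0.70, 0.53, 0.69 and 0.45. None of these 5 genes is a chaperone gene of the lists. Of these, Zfp472 passed the test in limma (adjusted p = 0.039). The search itself used the ZnO arrays, so fold changes near that of Ahsa2 were fixed by it. The fold changes and adjusted p-values of these probes are therefore descriptions and no separate support.

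Promoter sequence was set beside these values for the 8 genes of the set matched to RefSeq promoters on GRCr8, as the 250 bases before the transcription start. Hsp90aa1 and Hsf1 were not matched. Windows were searched on both strands for the heat shock pair (GAANNTTC or TTCNNGAA), for the heat shock triple (both of these pairs overlapping in 1 block of 3 letters), and for the core letters of the metal response element (TGCGCNC or TGCACNC). The pair was found in 5 of the 8 genes (Dnaja1, Dnajb1, Hspa8, Hspb1 and Hsph1) and in 13.5% of 33469 promoters. The triple was found in Hspa8 and Hsph1 and in 0.663% of promoters, and the metal response core in Dnaja1 and Hspa8 and in 20.6% of promoters. In Ahsa2, Ahsa1 and Hsp90ab1 none of these letters was present in the window. Such a match is a description of letters and not a bound site.

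The windows of 4 genes are shown because they put the genes with the largest log2 fold changes next to those with the longest heat shock letters, and capitals mark the heat shock pairs and triples. Ahsa2 lies on the minus strand at chr14:101686751-101687000, Dnaja1 on the plus strand at chr5:60638154-60638403, Hspa8 on the plus strand at chr8:50080264-50080513 and Hsph1 on the plus strand at chr12:10427118-10427367 (all GRCr8).
Ahsa2: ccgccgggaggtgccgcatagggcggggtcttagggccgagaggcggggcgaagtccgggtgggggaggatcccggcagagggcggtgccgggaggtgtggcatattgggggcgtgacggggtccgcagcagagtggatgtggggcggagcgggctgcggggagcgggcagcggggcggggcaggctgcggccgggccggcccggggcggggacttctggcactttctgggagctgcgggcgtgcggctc
Dnaja1: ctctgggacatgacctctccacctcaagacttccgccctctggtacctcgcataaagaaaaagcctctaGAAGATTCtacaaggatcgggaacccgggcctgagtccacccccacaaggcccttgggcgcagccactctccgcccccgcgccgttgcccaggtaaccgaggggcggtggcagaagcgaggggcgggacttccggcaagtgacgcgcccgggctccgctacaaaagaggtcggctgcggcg
Hspa8: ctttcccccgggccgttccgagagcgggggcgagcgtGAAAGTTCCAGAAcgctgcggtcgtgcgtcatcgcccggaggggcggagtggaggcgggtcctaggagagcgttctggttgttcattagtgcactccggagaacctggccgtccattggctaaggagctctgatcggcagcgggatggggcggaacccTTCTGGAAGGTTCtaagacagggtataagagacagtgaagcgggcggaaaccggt
Hsph1: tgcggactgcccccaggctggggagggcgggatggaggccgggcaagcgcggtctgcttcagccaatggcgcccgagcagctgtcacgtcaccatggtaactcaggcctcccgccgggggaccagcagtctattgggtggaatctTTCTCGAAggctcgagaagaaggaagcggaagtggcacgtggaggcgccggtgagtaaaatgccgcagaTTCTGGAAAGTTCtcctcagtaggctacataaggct
Hspa8 carried triples starting at -213 and -55 from the transcription start and Hsph1 carried 1 at -36, and both genes had a log2 fold change of 0.10. Dnaja1, at 0.36, carried a single pair at -181, and Ahsa2, at 0.62, carried none of these letters. The metal response core started at -126 in Dnaja1 and at -124 in Hspa8. Of the matched genes not shown, Ahsa1 (0.01) and Hsp90ab1 (0.03) carried none of the letters searched. Dnajb1 (0.00) and Hspb1 (0.03) carried heat shock pairs without a triple. A relation between these letters and the fold changes was not tested.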

How the data were processed

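RNA of 3 ZnO-exposed and 4 control replicates was labelled with Cy3 and hybridised on 1 array each, with every array on the same slide. Feature Extraction 11.0.1.1, named in the submitters' processing notes, gave a background-subtracted intensity for each spot, and the authors deposited this intensity without scaling it across arrays. A deposited joint table holds an intensity that equals the scanner's median signal on 100% of spots, and served only as an alternative. Control spots and outlier spots were left out. Log2 intensity was taken relative to the 75th percentile of each array, and spots of 1 probe were averaged.

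A probe entered the test when, in ZnO or in control cells, each array called it well above background (a share of 0.5 or more of its spots). ZnO and control arrays were compared with limma 3.58.1 in R 4.3.3 (lmFit and eBayes, Benjamini-Hochberg over 20065 probes), with no covariate. A gene takes its brightest tested probe. Files were read with R's data.table package (version 1.17.8), and sequences and plots were made with Python 3.11.15, pandas 2.3.3, numpy 2.4.6 and matplotlib 3.10.9. The fit was tested on simulated data of this comparison with 20058 probes. Of these, 100 were changed by a log2 value of 1 and 100 by 2, up or down. It recovered 82% of the former and 95% of the latter, with 12 unchanged probes among its 189 calls (6.35%). In the real data only 10 probes passed, and changes as small as the 0.62 of Ahsa2 were not simulated. The recovery therefore does not give the sensitivity for the genes of the set. The number of arrays limits the precision.

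The 10 genes and the chaperone and marker lists were chosen with earlier results of these data known. Named were all probes of the 10 genes, from each chaperone list up to 3 other genes with the largest absolute log2 fold change, the 5 genes with a current symbol most like Ahsa2 (probes without one were passed over), and Mt1a, Mt2A and Slc30a1. Bag3, LOC102552371 and the genes whose groups did not overlap were added after their values were seen. Alternatives were quantile normalization, centring on the array median or on 350 E1A spike-in spots, normexp background correction (offset 50), the deposited table, other filters on dim probes, a trended robust variance, array quality weights, the replicate number as a block, averaging the probes of a gene, and each array left out in turn. Leaving out the arrays marked for evaluation was chosen after seeing the data. Positions of probes were read from the files (rn4), and promoters are from RefSeq on GRCr8.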

Additional observations from a re-analysis of the deposited data

Results flagged for a closer look

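No control array stood apart from the other 3 by Dixon's test in any of the 17 tested probes of the 10 genes. The ZnO group of 3 arrays was not tested.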

How the results depend on the processing

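Over the reported setting and its alternatives (20 in all), Ahsa2 stayed above 0 in all (0.41 to 0.69), as did Dnaja1 (0.14 to 0.47), Hspa8 (0.06 to 0.17) and Hsp90aa1 (0.00 to 0.11). Hspb1 ran from -0.18 to 0.65, Hsph1 from -0.36 to 0.31, Hsp90ab1 from -0.17 to 0.10 and Hsf1 from -0.12 to 0.01. The cause of the differences between settings was not tested.

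The number of the 10 genes, and of the listed chaperone genes, at an adjusted p under 0.05 was 0 as reported and 1 with array quality weights (Ahsa2 both times). Genes of the set whose groups did not overlap numbered 2 as reported (7.38% of all probes), 0 with E1A centring (0.115%), 2 to 4 with an array left out (10.5 to 22.0%; 4 without ZnO replicate 3, 13.2%), and 9 without the arrays marked for evaluation (80.9%), where 1 ZnO array is assumed to vary like the controls. The number of genes apart was 3 with normexp background correction (5.23%), with the deposited table (5.66%) and with the probes of a gene averaged (7.38% of probes before averaging). It was 2 in the remaining settings that kept all arrays (4.51 to 7.38% of all probes). The median log2 fold change of the set was 0.11 with E1A centring, against 0.04, where the median of all probes was 0.06, against -0.01.

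Probes at an adjusted p under 0.05 numbered 10 as reported, 5 with E1A centring, 5 with no filter on dim probes, 5 without the arrays marked for evaluation and 7 to 8 with an array left out. After median centring 8 were higher and 1 was lower, and the split was 10 and 4 with a trended robust variance and 11 and 2 with array weights. Probes past the study's thresholds (adjusted p under 0.001, fold over 1.5) numbered 4 as reported, 1 under no filter, 0 without the arrays marked for evaluation, 3 without ZnO replicate 2 and 2 to 4 with an array left out, the 2 arising without ZnO replicate 3, control replicate 1 or control replicate 4.

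Same-numbered ZnO and control arrays did not visibly deviate together (r of -0.09, 0.21 and -0.24), and differently numbered arrays ran from -0.41 to 0.33. So few arrays cannot show whether the numbers pair the samples, and the reported fit used no pairing. With the replicate number as a block, 4 probes passed an adjusted p of 0.05, 0 passed the study's thresholds, and 0 of the 10 genes passed.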
